A study of Mus musculus with 7 samples.

Results

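The heat shock genes described here are 10 genes for cytosolic and mitochondrial molecular chaperones, taken by name: the HSP70 genes Hspa1a, Hspa1b and Hspa8, the HSP90 genes Hsp90aa1 and Hsp90ab1, the HSP110 gene Hsph1, the J-domain gene Dnajb1, the small heat shock gene Hspb1, and Hspd1 and Hspe1, which encode the mitochondrial chaperonin HSP60 and its partner HSP10. All 10 were among the 38293 genes of the count table, and all 10 were among the 14869 genes with enough counts to be tested. Chaperones bind unfolded or partly folded proteins and help them to fold, to be refolded or to be handed on for degradation. When unfolded proteins accumulate, heat shock factor HSF1 is released from chaperones, forms a trimer and binds heat shock elements, which are repeats of a short sequence unit in the promoters of its targets. Some members, such as Hspa8 and Hsp90ab1, are expressed at a high level in most unstressed cells, while Hspa1a, Hspa1b and Hsph1 are known for strong induction by stress. The intestinal epithelium renews itself from dividing crypt cells.

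The RNA came from scrapings of the ileum of male C57BL/6NRJ mice, that is, from epithelium and lamina propria with the muscle layer left behind. The mice were 8 weeks old and housed individually, were acclimatized for 1 week on the control diet, ate their diet for 2 weeks and were fasted for 4 h before they were killed. The 4 normal cys mice received a purified diet, high in fat and low in calcium, with 0.38% cystine. The 3 low cys mice received the same diet with 0.08% cystine, in which alanine took the place of the added L-cystine. Both diets gave 40% of the energy as fat, so fat-rich feeding was common to all mice, and the labels name no transgene or deletion. The libraries are called normal cys 1 to 4 and low cys 1 to 3, where the number is only a name. The labels give each library as a separate sample of its diet group and name no batch, and p-values measure the spread between these mice.

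The normal cys libraries held 19712355 to 22412703 counts and the low cys libraries 14888760 to 21942518 counts. Counts were normalized by TMM and are given as CPM, the count scaled to the effective size of the library, and diets were compared with edgeR's quasi-likelihood test over all 14869 genes. All 10 enterocyte markers and all 6 distal ileum markers passed the filter on low counts. In bulk tissue, fewer cells of a type and less RNA per cell cannot be told apart. A pair of libraries, normal cys 1 and low cys 1, stood apart from the rest in several of the heat shock genes. Normal cys 1 was among the highest 2 libraries for 8 of the 10 genes and low cys 1 for 5 of them. Normal cys 4 was among the highest 2 for 4 genes, and low cys 1 was the lowest library for 2. The 10 genes together held 0.235% of all counts in normal cys 1, 0.263% in low cys 1 and 0.128% to 0.209% in the other libraries. Since each diet group held 1 library of this pair, results that rest on the pair are given with and without it.

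The promoters of the heat shock genes are shown because they differ in the element that HSF1 binds. In the RefSeq promoter sequences (GRCm38.p6), 7 of the 10 members had an entry, and Hspa8, Hsp90aa1 and Hsp90ab1 had none. The 250 bases before each start were searched on both strands for 3 alternating units (GAANNTTCNNGAA or TTCNNGAANNTTC) and for 2 units (GAANNTTC or TTCNNGAA), and every match to 3 units also contains matches to 2. The 7 members had 10 promoters, since some have more than 1 start. The 3-unit element occurred in 153 of 32851 promoters (0.466%) and in 2 of the 10 member promoters, those of Hspd1 and Hspe1. The 2-unit element occurred in 4218 promoters (12.8%) and in 7 of the 10 member promoters, which belong to 6 of the 7 members. With 1 mismatch allowed, the 3-unit element occurred in 1998 promoters (6.08%) and in 7 of the 10 member promoters, of the same 6 members. Dnajb1 was the member with no match, which says only that these letters are not in this window. The matches are printed 5′ to 3′ on the strand of the gene, with the units of the element in capitals, and each was a match of letters that was not tested for binding.
Hspa1a: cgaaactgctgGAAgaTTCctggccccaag
Hspa1b: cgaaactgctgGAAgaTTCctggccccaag
Hsph1: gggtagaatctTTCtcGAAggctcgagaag
Hspb1: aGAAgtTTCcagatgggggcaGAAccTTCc
Hspd1: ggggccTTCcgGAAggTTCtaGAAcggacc
Hspe1: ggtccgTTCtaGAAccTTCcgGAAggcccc
The stretch of Hspa1a (chr17:34972242-34972271, minus strand) and that of Hspa1b (chr17:34959324-34959353, minus strand) were identical, and in both the element lay 104 to 97 bases before the start. The stretch of Hspb1 (chr5:135887801-135887830, plus strand) held 2 separate 2-unit elements between 117 and 90 bases before the start, and that of Hsph1 lay at chr5:149636351-149636380 on the minus strand. Hspd1 and Hspe1 are neighbours on opposite strands of chromosome 1 and share the same stretch (chr1:55088053-55088082), read from either side. It holds 4 alternating units, which began 89 bases before the start of Hspe1. RefSeq gives Hspd1 2 starts: the units began 144 bases before the downstream start, which is where the match was counted, and the window of the upstream start held no match. The stretch therefore lies inside the full annotated span of Hspd1, as most of the Hsph1 stretch lies inside that of Hsph1.

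The comparison of the diets asked whether cystine restriction changed chaperone expression in the ileum. No member passed the test after adjustment. In edgeR, 0 of the 10 members had an adjusted p-value under 0.05, with a smallest adjusted p of 0.794, where 0% of all genes tested had one. In DESeq2, 0 of the 10 members passed, with a smallest adjusted p of 0.707, where 0.108% of all genes did. At an unadjusted p-value under 0.05 in edgeR, 0 members were higher on low cys, against 2.66% of all genes, and 1 member, Dnajb1, was lower, against 2.83% of all genes. Of the 10 members, 6 had a positive and 4 a negative estimate, and 51.2% of all genes had a positive one. The median log2 fold change was 0.12 over the members and 0.01 over all genes tested. In 0 members did the diet groups separate, whereas all low cys libraries lay above all normal cys libraries in 3.32% of all genes and below them in 3.51%.

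**Figure D1:**
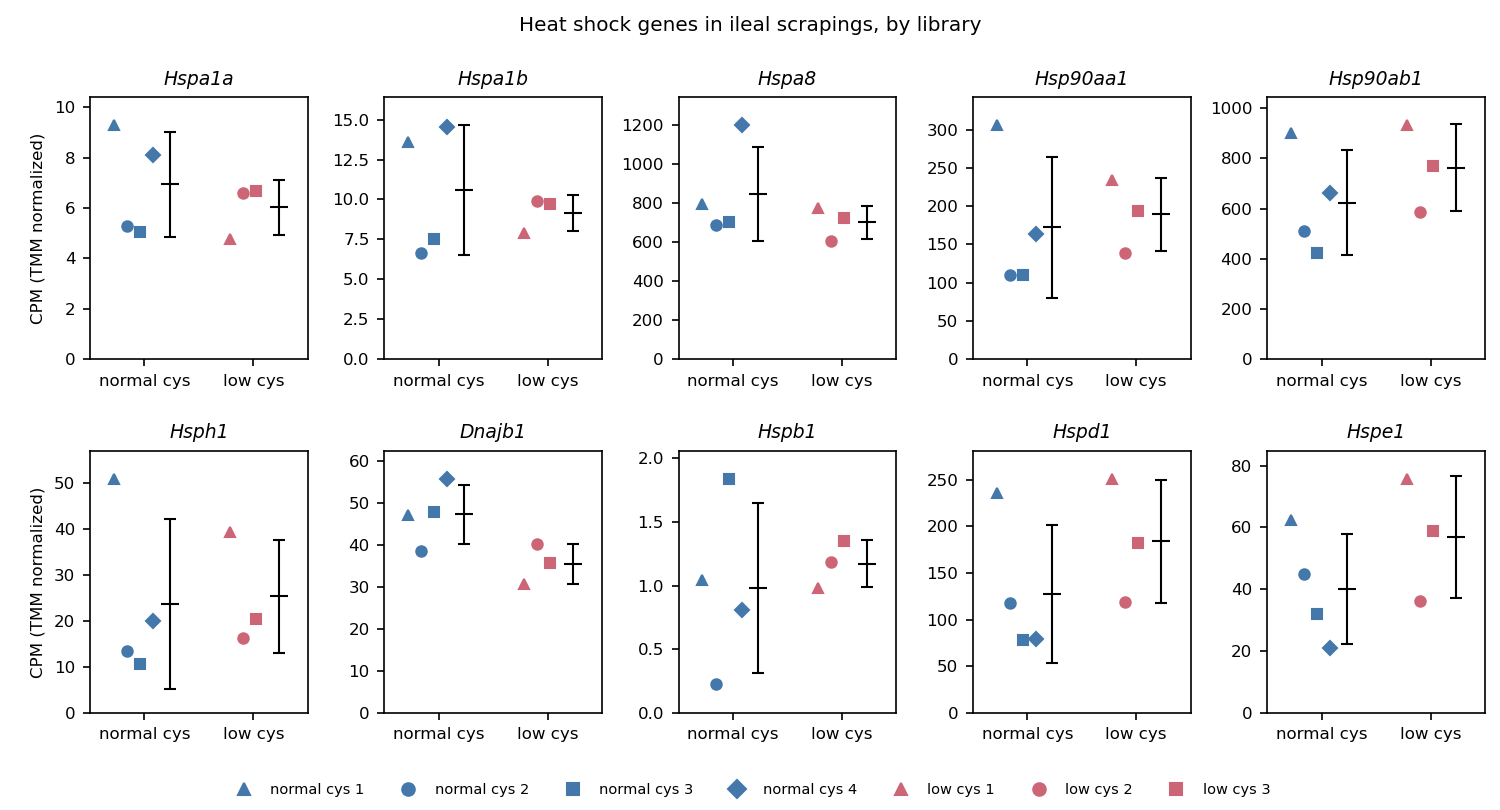
Normalized counts (CPM, linear axis from 0) of each heat shock gene in the 4 normal cys and 3 low cys libraries, with a symbol for each library, and the mean with its SD as a black bar. In each panel the diet groups overlap, and normal cys 1 and low cys 1, drawn as triangles, are the highest pair for Hsp90aa1, Hsp90ab1, Hsph1, Hspd1 and Hspe1.

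Hspa1a and Hspa1b encode near-identical stress-inducible HSP70 chaperones, and both were expressed at a low level in these scrapings. Hspa1a (ENSMUSG00000091971, GRCm38 chr17:34969199-34972154, minus strand) had 9.29, 5.31, 5.04 and 8.12 CPM in normal cys 1 to 4 and 4.77, 6.62 and 6.70 CPM in low cys 1 to 3. Normal cys 1 and 4 were the highest libraries, low cys 1 was the lowest, and the groups overlapped. Its mean was 6.94 ± 2.10 CPM (SD, n = 4) on normal cys and 6.03 ± 1.09 CPM (SD, n = 3) on low cys. Its log2 fold change was -0.21 (SE 0.272, 95% interval -0.82 to 0.41, adjusted p = 0.853 in edgeR). Hspa1b (ENSMUSG00000090877, chr17:34956436-34959238, minus strand) had 13.6, 6.63, 7.51 and 14.6 CPM in normal cys 1 to 4 and 7.87, 9.93 and 9.72 CPM in low cys 1 to 3. The low cys libraries lay between the high normal cys libraries 1 and 4 and the low normal cys libraries 2 and 3. Its means were 10.6 ± 4.08 CPM (SD, n = 4) and 9.17 ± 1.13 CPM (SD, n = 3), and its log2 fold change was -0.21 (SE 0.298, 95% interval -0.88 to 0.47, adjusted p = 0.862 in edgeR). The spread among normal cys mice was 2.20-fold from the lowest to the highest library for Hspa1b and 1.84-fold for Hspa1a, while among low cys mice it was 1.26-fold and 1.40-fold. The negative sign of both differences turned when normal cys 1 and low cys 1 were left out, to 0.13 for Hspa1a and 0.05 for Hspa1b. Of the 50-base stretches of Hspa1a transcripts, 58.8% also occur in Hspa1b, so reads from them may not be assigned to the right gene. With the counts of both summed, the log2 fold change was -0.21 (SE 0.268).

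Hspa8 encodes the constitutive HSP70, HSC70, which folds new proteins and uncoats clathrin vesicles. Hspa8 (ENSMUSG00000015656, chr9:40800984-40805200, plus strand) had 794.6, 689.7, 704.8 and 1201 CPM in normal cys 1 to 4 and 777.1, 608.1 and 722.4 CPM in low cys 1 to 3. Normal cys 4 stood above the rest, and the other libraries of both groups lay close together. Its means were 847.6 ± 240.3 CPM (SD, n = 4) and 702.6 ± 86.3 CPM (SD, n = 3). The log2 fold change was -0.27 (SE 0.220, 95% interval -0.77 to 0.23, adjusted p = 0.804 in edgeR), and it was -0.05 (SE 0.156) without normal cys 4.

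Dnajb1 encodes the cytosolic J-domain protein HSP40, which brings substrates to HSP70 and stimulates its ATPase. It was the heat shock gene with the smallest p-value and with the least variation between mice on the same diet. Dnajb1 (ENSMUSG00000005483, chr8:83608175-83611902, plus strand) had 47.1, 38.6, 47.9 and 55.8 CPM in normal cys 1 to 4 and 30.7, 40.2 and 35.8 CPM in low cys 1 to 3. The groups overlapped by 1 library on either side, since normal cys 2 lay below low cys 2. Its means were 47.3 ± 7.02 CPM (SD, n = 4) and 35.5 ± 4.75 CPM (SD, n = 3), a ratio of 0.750. The log2 fold change was -0.41 (SE 0.155, 95% interval -0.76 to -0.06), and the adjusted p was 0.794 in edgeR and 0.707 in DESeq2. Its unadjusted p was 0.0254 in edgeR and 0.0857 in the two-sided exact permutation test over the 35 assignments of the libraries, which cannot give less than 0.0286. The unadjusted edgeR p was 0.0406, 0.00868 and 0.04465 without normal cys 1, 2 and 3, and 0.0254 without low cys 2. It was 0.0529 without normal cys 4, 0.115 without low cys 1 and 0.0621 without low cys 3. The exact permutation test was not repeated on these subsets. With library totals as the only scaling, which moved the median of all genes to 0.15, the log2 fold change was -0.27 (SE 0.135) and the unadjusted edgeR p 0.0771, against the exact permutation p above. Without both normal cys 1 and low cys 1 the log2 fold change was -0.31 (SE 0.190), with an unadjusted edgeR p of 0.1495. Enterocyte markers, like Dnajb1, had negative estimates: of 10 tested, 0 had a positive one and none was at 0. At an unadjusted p-value under 0.05, 2 were lower, against 2.83% of all genes, both with an adjusted p of 0.794 in edgeR. Their summed level was 41800 to 63130 CPM on normal cys and 23110 to 41640 CPM on low cys. Their mean log2 CPM, in which each marker counts equally, overlapped between the diets. It was 11.4 in low cys 3, above 11.23 and 11.22 in normal cys 1 and 2. Dnajb1 was lowest in low cys 1, which also had the lowest enterocyte sum. Normal cys 3 and 4 were the 2 highest libraries for both, while the order of the libraries in between differed. The part of the enterocyte level in the Dnajb1 difference was not tested.

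**Figure D2:**
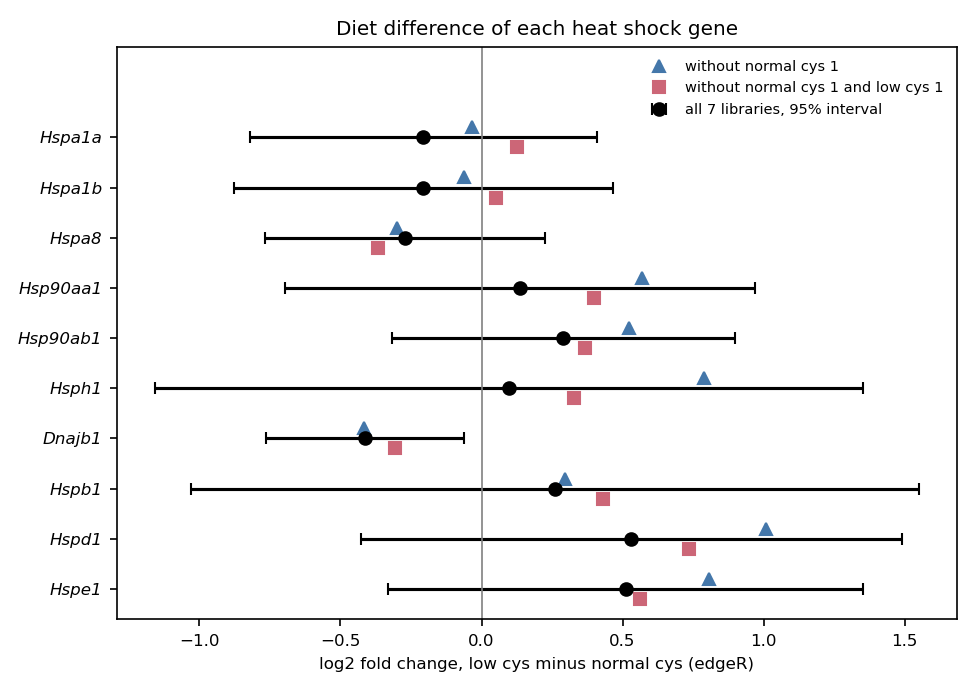
Log2 fold change of each heat shock gene (low cys minus normal cys, edgeR) over all 7 libraries with its 95% interval in black, without normal cys 1 (triangles), and without normal cys 1 and low cys 1 (squares). The interval of Dnajb1, from -0.76 to -0.06, is the one that leaves out 0, and the triangles of Hspd1, Hspe1 and Hsph1 lie at 1.01, 0.81 and 0.79.

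The HSP90 genes and Hsph1 varied more between mice on the same diet than between the diets. Hsp90aa1 encodes the inducible and Hsp90ab1 the constitutive cytosolic HSP90, a chaperone of kinases and steroid receptors. Hsp90aa1 (ENSMUSG00000021270, chr12:110690605-110702728, minus strand) had 305.6, 109.6, 110.3 and 163.1 CPM in normal cys 1 to 4 and 234.1, 139.3 and 194.0 CPM in low cys 1 to 3. Normal cys 1 was the highest library and normal cys 2 and 3 were the lowest, so the low cys libraries lay within the normal cys range. Its means were 172.1 ± 92.4 CPM (SD, n = 4) and 189.1 ± 47.6 CPM (SD, n = 3), with a log2 fold change of 0.14 (SE 0.367, 95% interval -0.70 to 0.97, adjusted p = 0.927 in edgeR). Hsp90ab1 (ENSMUSG00000023944, chr17:45567775-45573271, minus strand) had 902.4, 511.8, 421.7 and 661.3 CPM in normal cys 1 to 4 and 932.2, 587.7 and 769.8 CPM in low cys 1 to 3. Low cys 1 and normal cys 1 were again the highest pair and the groups overlapped. Its means were 624.3 ± 210.1 CPM (SD, n = 4) and 763.2 ± 172.3 CPM (SD, n = 3), with a log2 fold change of 0.29 (SE 0.269, 95% interval -0.32 to 0.90, adjusted p = 0.814 in edgeR).

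Hsph1 encodes HSP110 (HSP105), which releases ADP from HSP70 and slows aggregation. Hsph1 (ENSMUSG00000029657, chr5:149614287-149636376, minus strand) had 50.8, 13.5, 10.6 and 19.9 CPM in normal cys 1 to 4 and 39.2, 16.2 and 20.4 CPM in low cys 1 to 3. Normal cys 1 and low cys 1 were both well above the other 5 libraries, which lay between 10.6 and 20.4 CPM. Its means were 23.7 ± 18.5 CPM (SD, n = 4) and 25.3 ± 12.3 CPM (SD, n = 3). The log2 fold change was 0.10 (SE 0.547, 95% interval -1.16 to 1.35, adjusted p = 0.971 in edgeR). The biological coefficient of variation of Hsph1 within the diet groups was 49.4%, above that of 94.5% of all genes tested, whose median was 21.9%. For Hsp90aa1 it was 34.3% and for Hsp90ab1 26.3%, against 16.9% for Dnajb1. Without normal cys 1 and low cys 1, the log2 fold change was 0.40 (SE 0.242) for Hsp90aa1, 0.37 (SE 0.238) for Hsp90ab1 and 0.33 (SE 0.287) for Hsph1. Leaving out single libraries turned the sign for Hsp90aa1 and Hsph1 in 3 cases: to -0.01 and -0.08 without normal cys 2, to -0.03 and -0.16 without normal cys 3, and to -0.04 and -0.36 without low cys 1. Hsp90ab1 kept its sign in each of these, with 0.13 without low cys 1, and without normal cys 1 the 3 genes were at 0.57, 0.52 and 0.79 in the order Hsp90aa1, Hsp90ab1 and Hsph1.

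Hspd1 and Hspe1 had the largest positive estimates among the heat shock genes. They encode HSP60 and HSP10, which form the barrel and the lid of the chaperonin that folds proteins in the mitochondrial matrix. Hspd1 (ENSMUSG00000025980, chr1:55077835-55088243, minus strand) had 235.6, 117.5, 77.8 and 79.2 CPM in normal cys 1 to 4 and 250.9, 119.1 and 182.6 CPM in low cys 1 to 3. Low cys 1 and normal cys 1 were the highest, and the low cys libraries lay above normal cys 2, 3 and 4. Its means were 127.6 ± 74.4 CPM (SD, n = 4) and 184.2 ± 65.9 CPM (SD, n = 3). The log2 fold change was 0.53 (SE 0.418, 95% interval -0.43 to 1.49, adjusted p = 0.804 in edgeR). Hspe1 (ENSMUSG00000073676, chr1:55088132-55091307, plus strand) had 62.3, 44.8, 31.99 and 21.0 CPM in normal cys 1 to 4 and 75.7, 36.3 and 58.9 CPM in low cys 1 to 3. The order of the libraries was close to that of Hspd1 and the groups overlapped. Its means were 40.02 ± 17.8 CPM (SD, n = 4) and 57.0 ± 19.8 CPM (SD, n = 3), with a log2 fold change of 0.51 (SE 0.368, 95% interval -0.33 to 1.35, adjusted p = 0.798 in edgeR). The exons of both genes overlap on opposite strands by 112 bases, from 55088132 to 55088243, and without a stated strand setting reads from there cannot be told apart.

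Both differences depended on normal cys 1, which was the highest normal cys library for Hspd1, Hspe1 and Hsp90aa1. Their normal cys means fall when it is left out, so the calls in that fit were partly fixed by the choice of library. They are no separate support for a diet difference, and the estimates are given to show the dependence on normal cys 1. Without it, the log2 fold change was 1.01 (SE 0.281) for Hspd1, 0.81 (SE 0.324) for Hspe1 and 0.57 (SE 0.233) for Hsp90aa1, and these 3 members passed an unadjusted p-value under 0.05 as higher, against 6.3% of all genes in that fit. Dnajb1 was then the member that passed as lower, against 5.63% of all genes, and the smallest adjusted p over the members was 0.373 in edgeR. Without both normal cys 1 and low cys 1, Hspd1 had a log2 fold change of 0.74 (SE 0.260) and Hspe1 of 0.56 (SE 0.339), both with an adjusted p of 0.977 in edgeR. In that fit, chosen after seeing the data, Hspd1 was the 1 member with an unadjusted edgeR p-value under 0.05, at 0.0250. Of all genes, 4.52% passed there in either direction. The unadjusted edgeR p was then 0.1403 for Hspe1 and 0.1495 for Dnajb1. Without low cys 1 alone they were 0.25 (SE 0.463) and 0.26 (SE 0.401).

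Markers of dividing cells moved with Hspd1 and Hspe1 from library to library. Of 13 proliferation markers tested, all 13 had a positive estimate on low cys and none was at 0. At an unadjusted p-value under 0.05, 1 passed as higher, against 2.66% of all genes. Their summed level was 421.0, 311.1, 175.8 and 146.8 CPM in normal cys 1 to 4 and 468.9, 261.4 and 412.1 CPM in low cys 1 to 3. Low cys 1, normal cys 1 and low cys 3, in this order, were the 3 highest libraries for this sum, for Hspd1 and for Hspe1, and normal cys 3 and 4 were the 2 lowest for each. The same 3 libraries were also the highest for Hsp90aa1, Hsp90ab1 and Hsph1, so this trait was not particular to Hspd1 and Hspe1. Paneth cell markers, which mark the crypt base, had all 8 of 8 estimates positive with 0 past an unadjusted p-value under 0.05, none at 0, and summed levels of 817.6 to 5302 CPM on normal cys and 3212 to 5842 CPM on low cys. The part of these markers in the level of Hspd1 and Hspe1 was not tested.

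Hspb1 encodes the small heat shock protein HSP25, the mouse counterpart of human HSP27, which holds unfolding proteins without using ATP. It was the member measured least well, with 5 to 35 counts per library. Hspb1 (ENSMUSG00000004951, chr5:135887919-135889563, plus strand) had 1.04, 0.227, 1.84 and 0.812 CPM in normal cys 1 to 4 and 0.979, 1.19 and 1.35 CPM in low cys 1 to 3. The lowest and the highest library were both normal cys libraries. Its means were 0.980 ± 0.668 CPM (SD, n = 4) and 1.17 ± 0.187 CPM (SD, n = 3), with a log2 fold change of 0.26 (SE 0.571, 95% interval -1.03 to 1.55, adjusted p = 0.908 in edgeR). At this depth, differences inside that interval could not be resolved.

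**Figure D3:**
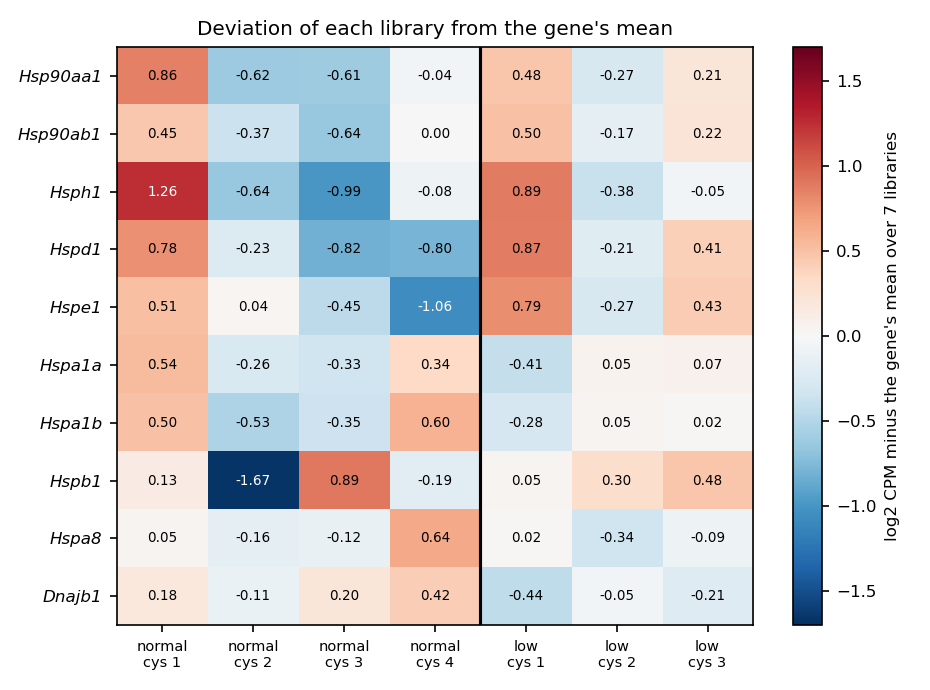
Log2 CPM of each heat shock gene minus that gene's mean over the 7 libraries, in colour and in figures, with the 4 normal cys libraries left of the black line and the 3 low cys libraries right of it. Normal cys 1 (1.26 for Hsph1) and low cys 1 (0.89 for Hsph1) are high together for the HSP90, Hsph1, Hspd1 and Hspe1 genes, whereas for Hspa1a they are 0.54 and -0.41.

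Scaled to exon length (CPM per kilobase of the deposited exon length), the members fell into 3 tiers whose ranges over the 7 libraries did not overlap. Hsp90ab1, with a mean level of 208.2 on normal and 254.5 on low cys, and Hspa8, with 203.9 and 169.0, formed the top tier. Their ranges were 140.6 to 310.8 and 146.3 to 289.0, so these 2 genes did not differ beyond their spread. Hspd1 (48.3 on normal and 69.7 on low cys), Hsp90aa1 (43.8 and 48.1), Hspe1 (27.2 and 38.6) and Dnajb1 (20.9 and 15.7) formed the middle tier, with ranges of 29.5 to 94.98, 27.9 to 77.7, 14.2 to 51.3 and 13.6 to 24.6 that overlapped from one gene to the next. The lowest tier held the stress-inducible Hspa1b (3.77 and 3.27), Hsph1 (3.37 and 3.59) and Hspa1a (2.35 and 2.04), and below them Hspb1 (0.951 and 1.14), whose highest library at 1.78 lay just above the lowest library of Hspa1a at 1.61. Lengths cover the exons of all isoforms, and any reads lost to copies of a gene would lower its level.

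The members did not vary as 1 group between mice, and 5 of their 45 pairs were correlated past adjustment. Over the 7 libraries, r of log2 CPM was positive for 34 pairs and negative for 11, and each p is two-sided from an exact permutation test over 5040 pairings, adjusted by Benjamini-Hochberg over the 45 pairs. The HSP90 genes and Hsph1 formed a trio. Hsp90aa1 and Hsph1 had a Pearson r of 0.970 (exact permutation p = 0.000397, adjusted 0.0179) and a Spearman rho of 0.964 (exact permutation p = 0.00278, adjusted 0.0625), and r was 0.958 without the 2 libraries farthest from the median of Hsp90aa1. Hsp90ab1 and Hsph1 had an r of 0.941 (exact permutation p = 0.00159, adjusted 0.0238) and a rho of 0.964 (exact permutation p = 0.00278, adjusted 0.0625), with r = 0.907 without the 2 farthest libraries. Hsp90aa1 and Hsp90ab1 had an r of 0.948 (exact permutation p = 0.00238, adjusted 0.0268) and a rho of 0.929 (exact permutation p = 0.00675, adjusted 0.0759), with r = 0.993 without the 2 farthest. Leaving out normal cys 1 and low cys 1, the 3 correlations of the trio were 0.922, 0.979 and 0.952 over the 5 remaining libraries.

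The other pairs past adjustment joined neighbouring genes. Hspd1 and Hspe1 had an r of 0.938 (exact permutation p = 0.00159, adjusted 0.0238) and a rho of 0.929 (exact permutation p = 0.00675, adjusted 0.0759), and r was 0.890 without normal cys 1 and low cys 1, which were also the 2 farthest libraries. Hspa1a and Hspa1b had an r of 0.929 (exact permutation p = 0.00496, adjusted 0.0446) and a rho of 0.786 (exact permutation p = 0.0480, adjusted 0.240), with r = 0.962 without the 2 farthest, but these genes share sequence. In Spearman's rho, 0 of the 45 pairs passed adjustment. The same 5 correlations were recomputed on deviations from the diet means, where adjusted p-values lay between 0.00893 and 0.0393 in permutation tests over all 7 libraries. Deviations within a diet group depend on each other, so these tests are not exact and their p-values may be too small. The pairs of the trio with Hspd1 failed the adjustment, and their r was lower without normal cys 1 and low cys 1. For Hsph1 and Hspd1, r was 0.836 (exact permutation p = 0.0179, adjusted 0.116) and rho 0.857 (exact permutation p = 0.0238, adjusted 0.179), with r = 0.470 without these libraries, which were also the 2 farthest. For Hsp90aa1 and Hspd1, r was 0.818 (exact permutation p = 0.0333, adjusted 0.181) and rho 0.786 (exact permutation p = 0.0480, adjusted 0.240), with r = 0.518 without these libraries and 0.852 without the 2 farthest. For Hsp90ab1 and Hspd1, r was 0.854 (exact permutation p = 0.0181, adjusted 0.116) and rho 0.893 (exact permutation p = 0.0123, adjusted 0.111), with r = 0.624 without these libraries and 0.711 without the 2 farthest. Dnajb1 ran against Hspe1, with an r of -0.786 (exact permutation p = 0.0361, adjusted 0.181) and a rho of -0.786 (exact permutation p = 0.0480, adjusted 0.240), which failed the adjustment. This r was -0.271 without the 2 farthest libraries, normal cys 4 and low cys 1, and -0.965 without normal cys 1 and low cys 1, so its size changed with the libraries left out. Hspa8 had no pair past adjustment, and the smallest adjusted p of its pairs was 0.445 in the exact permutation test.

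**Figure D4:**
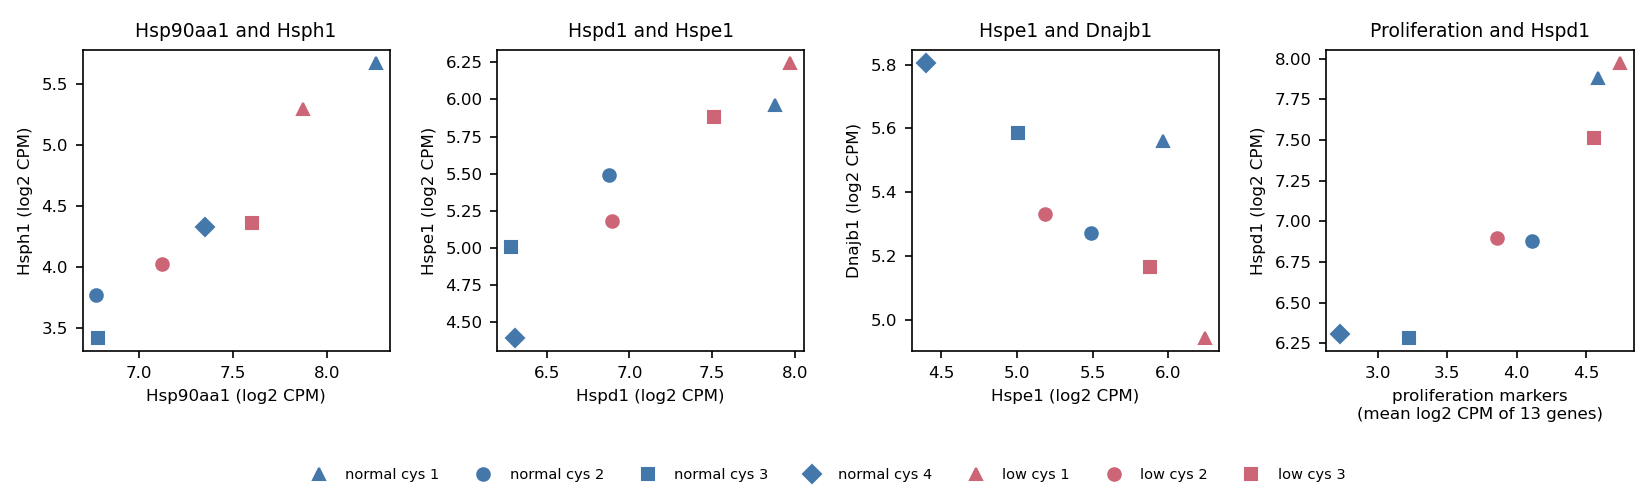
Log2 CPM of pairs of heat shock genes in the 7 libraries, and, at the right, the mean log2 CPM of 13 proliferation markers against Hspd1. Hsp90aa1 with Hsph1 (r = 0.970) and Hspd1 with Hspe1 (r = 0.938) run up together across both diets, Hspe1 and Dnajb1 run against each other, and the same 3 libraries are highest for the proliferation markers and Hspd1.

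Among all other genes tested, those whose log2 CPM over the 7 libraries was most like that of 3 members were found by Pearson's r, as a description over libraries that share their depth and normalization. For Hspa8 the closest was Gm15459 (r = 0.997), a processed pseudogene that carries Hspa8 sequence, followed by Tmem174 (0.978), Gucy2c (0.972), the guanylin receptor of enterocytes, Gm16199 (0.972) and Drosha (0.971). For Hspd1 they were Mmachc (0.994), of vitamin B12 metabolism, Taf4b (0.994), Tat (0.993), tyrosine aminotransferase, the Hspd1 pseudogene listed as Gm12141 (0.991) and Hnrnpu (0.99). For Hspa1b they were Hnrnpul2 (0.989), Gm9770 (0.980), Vamp7-ps (0.973), Lsm14a (0.971) and Fam168b (0.966). By Spearman's rho, 3, 1 and 3 of these 5 genes were still among the highest for Hspa8, Hspd1 and Hspa1b, ties included. With ties, 14, 42 and 51 genes lay at or above the 5th highest rho for these members, so the rank order singles out few genes.

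Copies of the heat shock genes elsewhere in the genome also held counts, at a ratio to the parent gene that was close to constant for 3 members. Of the 50-base stretches of its transcripts, 50 bases being the read length, Hspa8 shared 39.4% with other genes, Hsp90aa1 47.5%, Hspd1 42.1% and Hspb1 50.1%, while Hsph1 shared 0%, Dnajb1 0.412%, Hsp90ab1 3.44% and Hspe1 22.8%. Gm15459 held 4965 to 13244 counts, which were 0.5 to 0.526 times the counts of Hspa8 in each library. Gm12346 held 26.3% to 30.7% of the counts of Hsp90aa1, and the Hspd1 pseudogene, named Hspd1-ps3 in GENCODE, 26.8% to 33.4% of those of Hspd1. Adding the copies to their parent gene gave log2 fold changes of -0.28 (SE 0.223) for Hspa8, 0.14 (SE 0.376) for Hsp90aa1 and 0.55 (SE 0.402) for Hspd1. For Hspb1 the picture differed, since Gm9817, which shares 38.3% of the Hspb1 stretches, held 160, 98, 319 and 603 counts in normal cys 1 to 4 and 109, 156 and 91 in low cys 1 to 3. This was 4.33 to 35.5 times the counts of Hspb1, and with its copies added the log2 fold change of Hspb1 was -0.93 (SE 0.569), with the opposite sign. Which of the reads counted in the copies came from RNA of the parent gene was not tested, for Hspb1 or for the other 3 members. The settings for reads that match several places are not given.

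**Figure D5:**
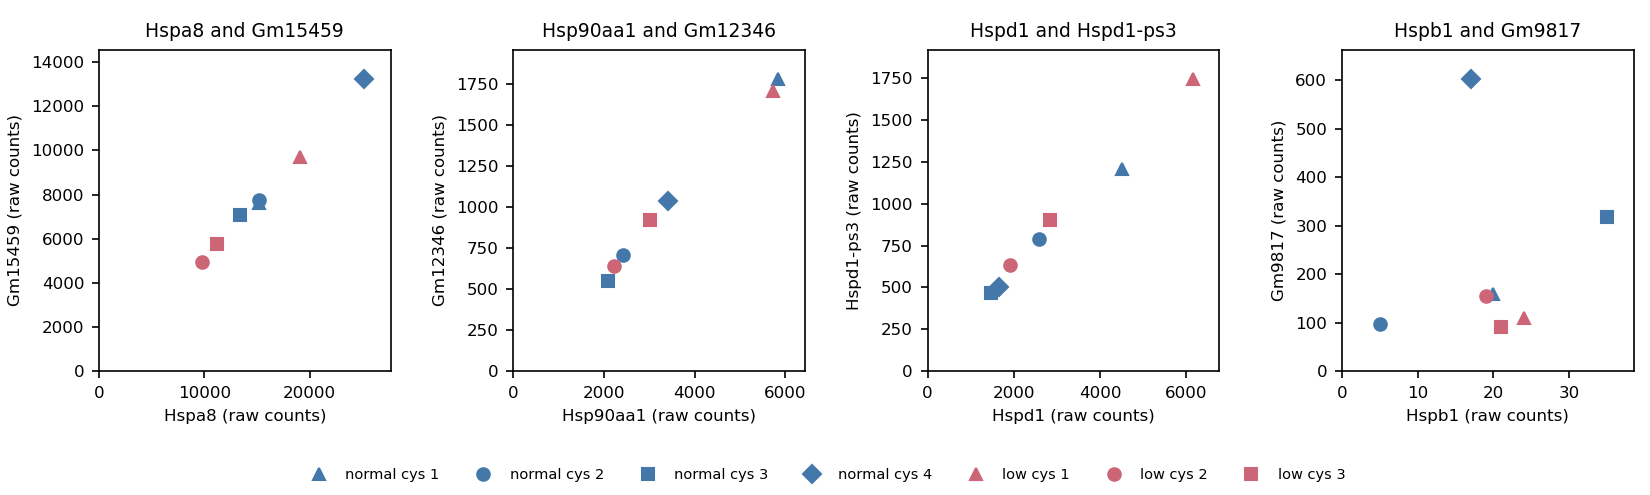
Raw counts of 4 heat shock genes (horizontal, from 0) against those of their most counted copy (vertical, from 0) in the 7 libraries. Gm15459, Gm12346 and Hspd1-ps3 lie along a line through their parent gene's counts, at 0.5 to 0.526 times those of Hspa8, whereas Gm9817, with 91 to 603 counts, does not follow Hspb1, with 5 to 35.

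The rest of the chaperone system was read from 9 lists with 128 genes, of which 115 were tested. At an unadjusted p-value under 0.05, 2 were higher and 1 was lower on low cys, which is 2.61% of those tested against 5.49% of all genes, and 0 passed adjustment in edgeR. Their median log2 fold change was 0.03, and 66 of the 115 estimates were positive. Among heat shock factors and their binding proteins, 0 of 6 passed (median -0.11). Hsbp1, which binds heat shock factor trimers, had 82.6 ± 11.3 CPM (SD, n = 4) on normal and 66.5 ± 8.79 CPM (SD, n = 3) on low cys and was the most abundant of them. Of the other HSP70 and HSP110 genes, 1 of 6 passed, as lower: Hspa12a, a distant HSP70 relative, with 89.2 ± 16.5 and 52.9 ± 23.7 CPM and a log2 fold change of -0.75 (SE 0.274, adjusted p = 0.794 in edgeR). Of 21 J-domain genes outside the mitochondrial and ER lists, 1 passed as higher, Dnajc21, a ribosome assembly factor. It had 13.3 ± 0.805 and 16.8 ± 2.45 CPM and a log2 fold change of 0.34 (SE 0.149), and the list median was -0.01. Of 9 other small heat shock genes, 1 was tested, Hspb6, at 1.34 ± 0.528 and 1.56 ± 0.181 CPM, and Hspb2, Hspb3 and Hspb9 were at 0.

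Among 18 HSP90 co-chaperones, 1 passed as higher (list median 0.08). It was Ppid, the cyclophilin 40 that binds HSP90, with 15.5 ± 2.65 CPM (SD, n = 4) and 20.9 ± 4.01 CPM (SD, n = 3) and a log2 fold change of 0.43 (SE 0.185, adjusted p = 0.794 in edgeR). Of 12 HSP70 co-chaperones and nucleotide exchange factors, 0 passed (median -0.10), and the most abundant was Bag6, which guards tail-anchored proteins, at 129.9 ± 5.45 and 122.4 ± 6.11 CPM. Of 20 mitochondrial chaperones and proteases, the partners of Hspd1 and Hspe1 in the organelle, 0 passed, and 14 estimates were positive with a median of 0.09. The most abundant over the 7 libraries was Hspa9, the mitochondrial HSP70 that draws proteins through the inner membrane, at 126.7 ± 32.4 and 153.2 ± 28.4 CPM, although on normal cys the protease Afg3l2 was at 139.5 ± 17.6 CPM. Of 15 CCT chaperonin and prefoldin genes 0 passed (median 0.05), with Cct2 the most abundant at 104.8 ± 14.6 and 112.4 ± 15.2 CPM. Of 16 ER chaperones, which answer to unfolded protein in the secretory pathway rather than the cytosol, 0 passed (median 0.07), with the disulfide isomerase P4hb the most abundant at 1762 ± 221.3 and 1486 ± 312.1 CPM.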

How the data were processed

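Ileal scrapings of 4 normal cys and 3 low cys mice were sequenced by the authors as poly(A)-selected stranded paired-end libraries. The authors trimmed reads with TrimGalore, removed rRNA reads with SortMeRNA, aligned with STAR to GRCm38 and deposited raw counts per gene and exon lengths from featureCounts with Ensembl GRCm38.70. The strand and multi-mapping settings are not given in the sources used here.

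Genes were kept by filterByExpr (minimum count 10, minimum total count 15), scaled with TMM factors and compared between low cys and normal cys without covariates by edgeR 4.0.16 (glmQLFit with robust estimation and glmQLFTest, R 4.3.3), with Benjamini-Hochberg adjustment over 14869 genes. Log2 CPM used a prior count of 2. Depth was 14888760 to 22412703 counts per library, and the closest of 21 library pairs had a chi-square per gene of 22.3, so none was a duplicate. DESeq2 1.42.0, limma 3.58.1 (voom, with and without quality weights), other scalings and filters and leaving out each library were the alternatives. The fit was tested on simulated data. The members, lists and tests were chosen with earlier results of these data known. Genes named are the members, in each chaperone list up to 3 genes with the smallest p-value among those with an unadjusted p-value under 0.05, or otherwise the most abundant, and the 5 genes most like Hspa1b, Hspa8 and Hspd1. Shared sequence was measured in GENCODE M21 transcripts.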

Additional observations from a re-analysis of the deposited data

Results flagged for a closer look

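The mean log2 CPM of the 12 HSP70 co-chaperones and nucleotide exchange factors was 4.36 in normal cys 1 and 4.17, 4.18 and 4.20 in normal cys 2, 3 and 4. The gap of normal cys 1 to the nearest other library was 0.8296 of the group's range, just over the 95% critical value of Dixon's test for 4 samples. It was the only one of 32 values examined (the 10 members and the chaperone and marker lists) beyond that value, and chance gives 1.6 of 32. The summed level of the same genes did not show this, since it was 552.0 CPM in normal cys 1 and 558.6, 558.0 and 572.1 CPM in normal cys 2, 3 and 4. Normal cys 1 was also the highest library for Hspa1a, Hsp90aa1 and Hsph1.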

How the results depend on the processing

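In edgeR 0 genes passed adjustment, and 16 did with DESeq2 and 4 with limma-voom quality weights, where leaving out 1 library gave 0 to 1. Genes with an unadjusted p-value under 0.05 numbered 817 (5.5% of those tested), and 1850 (12.4%) with quality weights. When 1 library was left out they numbered 258 (1.71%, without low cys 1) to 1764 (11.9%, without normal cys 1). The count of members at that threshold was 1, and it was 0 with library totals as the only scaling, 2 with quality weights (Dnajb1 and Hspd1) and 0 to 4 when 1 library was left out (4 without normal cys 1, 0 without normal cys 4, low cys 1 or low cys 3). Of the chaperone list genes 3 passed, against 1 with DESeq2 and 6 with library totals. Library totals moved the median of all genes from 0.01 to 0.15 and the share of higher calls from 48.5% to 87.8%, and relative to that median Dnajb1 was at -0.42 and Hspd1 at 0.53. Of 164 alternative values of the 10 fold changes, 152 kept their direction, and 0 passed adjustment. Those that turned were Hspa1a (0.015 with quality weights, 0.13 without both normal cys 1 and low cys 1), Hspa1b (0.072 and 0.051), Hsp90aa1 (-0.035 to 0.57 when 1 library was left out), Hsph1 (-0.36 to 0.79) and Hspb1 (-0.058 to 0.75, and -0.93 with its copies added). The removal of both libraries and the added copies were chosen after seeing the data. The cause of these changes was not tested. With 4 and 3 libraries the exact permutation test cannot give less than 0.0286, and for Hspb1 the 5 to 35 counts per library limit the precision.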

Other observations

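Outside the chaperones, the summed level of 10 stroma markers was 19.0 to 26.1 CPM on normal cys and 35.5 to 38.8 CPM on low cys, all 8 markers tested had a positive estimate, and 3 passed an unadjusted p-value under 0.05 as higher, against 2.66% of all genes. None of them passed adjustment, with a smallest adjusted p of 0.794 in edgeR. Of 8 smooth muscle markers tested, all had a positive estimate, with a median log2 fold change of 1.38, and 2 were higher at that threshold with an adjusted p of 0.794 in edgeR. The diets overlapped in the mean log2 CPM of these markers, which was 1.135, 3.32 and 2.335 in low cys 1 to 3. Normal cys 1 and 2, at 2.10 and 1.547, lay above low cys 1. Their sum, 192.1 to 232.6 CPM on normal and 177.7 to 276.2 CPM on low cys, was mostly Mylk, singled out after its values were seen, at 191.1 ± 16.8 CPM (SD, n = 4) and 192.1 ± 31.4 CPM (SD, n = 3), while Acta2, chosen in the same way, was at 1.40 ± 1.03 and 3.83 ± 2.89 CPM. The immediate early genes, which respond within minutes to handling or stress, summed to 854.8 to 1396 CPM on normal and 970.5 to 1109 CPM on low cys. Of these 14 genes, 0 were higher and 1 was lower at an unadjusted p-value under 0.05, against 2.66% and 2.83% of all genes. T cell markers had 0 of 9 positive estimates with 0 past that threshold, at 128.3 to 241.9 CPM on normal and 94.9 to 148.3 CPM on low cys.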
